A study of Mus musculus with 24 samples.

Results

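The 41 genes described here are 19 Wnt ligand genes, 10 Frizzled receptor genes, 7 genes of secreted antagonists and 5 feedback or effector genes, taken as a fixed list of names out of 21887 protein-coding genes. All 41 were found in the gene table. Wnt proteins are secreted lipid-modified ligands that bind Frizzled receptors on neighbouring cells. When the canonical branch is active, beta-catenin escapes its destruction complex, enters the nucleus and acts with TCF and LEF factors on target genes, among them feedback inhibitors of the pathway itself. In the early mouse embryo, and in embryonic stem cells that differentiate, Wnt signalling is known for its part in the formation of the primitive streak and mesoderm, and secreted antagonists of the Sfrp and Dkk families limit its range.

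The study mapped acetylation of histone H3 on lysine 9 (H3K9ac), which marks promoters in use, by chromatin immunoprecipitation and sequencing in embryoid bodies, cell aggregates in which embryonic stem cells differentiate. All cells were C57BL/6 mouse cells at day 5 of differentiation. In 4 libraries the cells carried the floxed Gcn5 allele on both chromosomes (fx/fx, clones 4_1 and 6_1), and in 4 they were Gcn5 null (-/-, the clones named 4_C2 and 6_C4). Every clone has 2 replicates. The gene Kat2a codes for Gcn5, an enzyme that places acetyl groups on histones, lysine 9 of H3 among them. Each genotype is thus represented by 2 clones, and the leading number of the clone names is used here as the isolate pair: pair 4 holds clones 4_1 and 4_C2, pair 6 holds clones 6_1 and 6_C4. The sources used here do not say what that number stands for, how the null clones were made or whether replicates were separate cultures, so p-values measure the spread between these libraries only. Of the 24 samples in the series, the other 16 (input DNA and total H3) were left aside.

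The measurement is the position of called peaks, with no height. A gene was said to have a peak in a library when at least 1 bp of a peak lay within 1000 bp of its left or right annotated end, and the covered length is the number of base pairs of peaks touching those windows in that library. Overlapping peaks of the 8 libraries were also merged into 26034 regions, and the width of a region in a library is the length its peaks cover. In bulk chromatin of this kind, fewer cells of a type and less of the mark per cell cannot be told apart.

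The lists of pair 4 held 12041 to 15315 peaks over 21.8 to 31.5 Mb, and those of pair 6 held 17849 to 20809 peaks over 36.5 to 44.3 Mb. The ranges of the isolate pairs did not overlap, and replicate 2 of clone 4_C2 had the shortest list. Sequencing depth is unknown, so every difference between the pairs below stands beside this difference in list length. Its part in them cannot be told apart from that of the clones. Lists of equal length, quoted below, hold the 12041 widest peaks of each library. They cut the pairs at unlike widths, so they do not separate these parts either. Kat2a itself had a peak in 4 of 4 fx/fx libraries (3416 to 4024 bp) and in 4 of 4 null libraries (2975 to 3258 bp), which does not check the deletion, since the sources used here do not give the deleted part. Of cell type markers, the pluripotency genes Pou5f1 and Nanog had a peak in 7 libraries each, the epiblast genes Fgf5 and Otx2 in 8 and 6, the streak genes T and Eomes in 4 and 6, and the neural genes Sox1 and Pax6 in 7 and 1. The endoderm genes Sox17 and Foxa2 had one in 5 each, the trophoblast genes Cdx2 and Elf5 in 3 and 0, the blood and endothelial genes Kdr and Tal1 in 5 and 8, and the fibroblast genes Col1a1 and Col1a2 in 1 each. Of the same lists, Esrrb, Dnmt3a, Hnf4a, Afp, Ttr, Gata3, Col3a1, Postn, Dcn and Lum had none in any library, nor had 5 of the 7 blood and endothelial genes (Lmo2, Gata1, Runx1, Cdh5 and Pecam1).

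The sequences below are the 150 bp before the start site of 7 members, read from the RefSeq table on assembly GRCm38.p6, which shares its primary sequence with mm10. They are shown because the members with a peak in every library and those without a peak differed in the CG content of this stretch, and because Wnt3a and Lef1 went against that pattern. Each runs 5′ to 3′ on the strand of its gene, and the capitals mark CG dinucleotides.
Fzd5, peak in all 8 libraries, chr1:64737751-64737900, minus strand: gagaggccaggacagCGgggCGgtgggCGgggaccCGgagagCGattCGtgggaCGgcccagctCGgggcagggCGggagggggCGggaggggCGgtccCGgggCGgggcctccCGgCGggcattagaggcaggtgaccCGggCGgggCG
Axin2, peak at the start in all 8, chr11:108920199-108920348, plus strand: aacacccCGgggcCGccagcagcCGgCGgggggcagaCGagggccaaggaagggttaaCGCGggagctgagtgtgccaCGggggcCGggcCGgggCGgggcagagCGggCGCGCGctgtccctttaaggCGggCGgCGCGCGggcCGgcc
Lef1, peak in all 8, chr3:131110147-131110296, plus strand: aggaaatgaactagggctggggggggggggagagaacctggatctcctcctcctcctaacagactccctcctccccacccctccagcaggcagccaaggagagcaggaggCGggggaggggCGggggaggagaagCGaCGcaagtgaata
Wnt7a, peak in the 4 libraries of pair 6, chr6:91411354-91411503, minus strand: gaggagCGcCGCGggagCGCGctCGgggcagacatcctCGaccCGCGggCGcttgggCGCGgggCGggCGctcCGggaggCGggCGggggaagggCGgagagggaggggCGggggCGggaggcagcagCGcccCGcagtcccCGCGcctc
Wnt3a, no peak at the start, chr11:59290752-59290901, minus strand: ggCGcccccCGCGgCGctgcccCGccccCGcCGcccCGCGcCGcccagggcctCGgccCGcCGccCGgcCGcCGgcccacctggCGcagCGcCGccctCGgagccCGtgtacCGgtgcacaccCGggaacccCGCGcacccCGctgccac
Wnt16, no peak, chr6:22288077-22288226, plus strand: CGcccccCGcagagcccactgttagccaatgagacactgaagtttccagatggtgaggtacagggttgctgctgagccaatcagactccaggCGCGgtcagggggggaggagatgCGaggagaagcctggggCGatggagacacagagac
Dkk1, no peak, chr19:30549497-30549646, minus strand: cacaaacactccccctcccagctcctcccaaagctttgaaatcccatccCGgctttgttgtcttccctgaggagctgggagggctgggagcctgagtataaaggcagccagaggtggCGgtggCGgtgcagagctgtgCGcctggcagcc

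These 150 bp hold 18 CG dinucleotides in Fzd5, 21 in Axin2, 24 in Wnt7a and 26 in Wnt3a, but 4 in Lef1, 6 in Wnt16 and 4 in Dkk1. For all genes, composition was taken over the 250 bp before the outermost listed start. The table had an entry for 30 members. Those without one are Wnt5a, Wnt7b, Wnt8a, Wnt10a, Fzd2, Fzd3, Fzd6, Fzd8, Sfrp1, Sfrp4 and Dkk3. The ratio of observed CG to that expected from the base composition had a median of 0.884 in the 14 members with a peak at the start in all 8 libraries, 0.768 in the 9 with one in 1 to 7 libraries, and 0.42 in the 7 with none. Over all genes of the table the same medians were 0.787 (8081 genes), 0.561 (2702 genes) and 0.172 (6703 genes). In each class the members' median lay above that of all genes, and the order of the classes was the same.

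The members' promoters were also richer in G and C, with a median of 70% against 55.2% over 17486 promoters. The GC box word GGGCGG, on either strand, was in 22 of 30 members (73.3%) and in 42.7% of all promoters of that length. The TATA box word TATAAA was in 4 members, Wnt11, Fzd1, Dkk1 and Dkk2, or 13.3%, against 12.4% of all. The word CTTTGAT, the sequence that TCF and LEF factors are known to prefer, was in 1 member (3.33%) against 2.89% of all promoters, and its shorter form CTTTG, which lies inside it, in 12 (40%) against 46.8%. The member with the longer word is Wnt11, the ligand gene known for heart and kidney development. In the 250 bp before its start the capitals mark that word on the opposite strand.
Wnt11, peak in all 8 libraries, chr7:98834862-98835111, plus strand: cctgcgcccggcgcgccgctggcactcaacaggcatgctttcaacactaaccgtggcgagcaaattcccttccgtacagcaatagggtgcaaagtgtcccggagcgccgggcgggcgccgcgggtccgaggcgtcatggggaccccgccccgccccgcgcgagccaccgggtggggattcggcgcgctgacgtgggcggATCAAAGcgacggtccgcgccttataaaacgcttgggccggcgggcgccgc

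A match is a stretch of letters and not a binding site. Members that went against the CG pattern could be set beside all genes with a like promoter. Wnt3a, a canonical ligand of the primitive streak and tail, has 41 CG dinucleotides in 250 bp, and of 231 genes with at least as many, 6 (2.60%) had no peak at the start in any library. Wnt1, a ligand of the midbrain and neural crest, has 23, and of 2920 genes with at least as many 31 (1.06%) had no peak. Lef1, which encodes a DNA-binding partner of beta-catenin, has 11 with a ratio of 0.40, and of the genes with no more than 11 CG dinucleotides 18.4% had a peak in all 8 libraries. Fzd1, a broadly expressed receptor gene, has 12 and likewise had a peak in all 8, as had 20.6% of genes with no more.

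**Figure D1:**
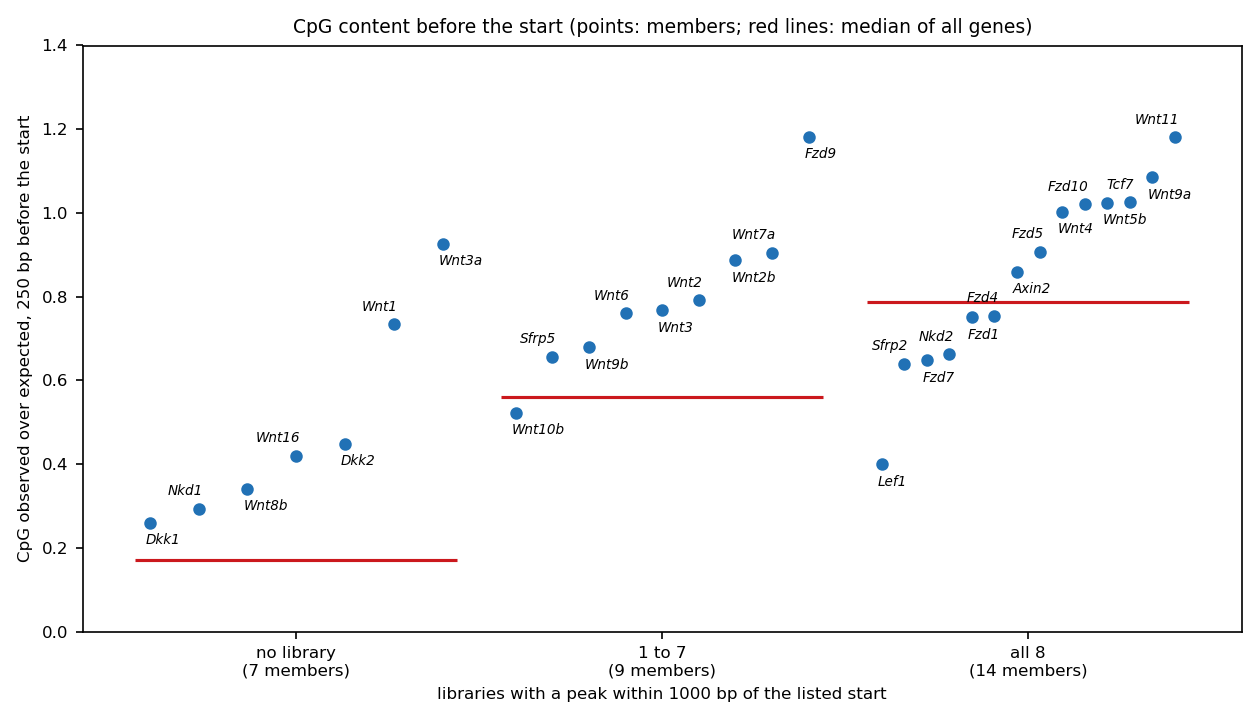
Ratio of observed to expected CG in the 250 bp before the start (vertical axis) against the number of libraries with an H3K9ac peak within 1000 bp of the start (horizontal axis). Points are the 30 members in the RefSeq table and red lines the medians of all genes: Wnt3a (0.927) stands above the other members without a peak, and Lef1 (0.40) below the others with a peak in all 8 libraries.

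The first comparison is between the members' roles. Receptor genes had a peak nearly throughout, while ligand genes varied from gene to gene and from library to library. Of 10 Frizzled genes, 9 had a peak in all 8 libraries and the other, Fzd9, a receptor gene known from the brain and bone, in 7 (1261 to 1897 bp), missing in replicate 2 of 4_C2. Of 19 ligand genes, 4 (Wnt4, Wnt5b, Wnt9a and Wnt11) had one in all 8, 11 in some libraries and 4 (Wnt2, Wnt3a, Wnt8b and Wnt16) in none. Of 7 antagonist genes, Sfrp1 and Sfrp2 had one in all 8, Sfrp4, Sfrp5 and Dkk3 in some, and Dkk1 and Dkk2 in none. Of the 5 feedback and effector genes, Nkd1, Nkd2, Lef1 and Tcf7 had one in all 8 and Axin2 in none of its end windows.

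Over the whole list, 19 of 41 members (46.3%) had a peak in all 8 libraries, against 45.3% of all 21887 genes, so the share of members was close to the background. A peak in 1 to 7 libraries was held by 15 members (36.6%) against 17% of all genes, and none by 7 (17.1%) against 37.8%. Of these 15, 11 were ligand genes. The number of members with a peak was 28 and 21 in clone 4_1, 24 and 23 in 4_C2, 32 and 29 in 6_1, and 28 and 29 in 6_C4. By genotype the means were 27.5 ± 4.65 in fx/fx and 26 ± 2.94 in null libraries (SD, n = 4 each), a difference smaller than either spread. By isolate pair they were 24 ± 2.94 in pair 4 and 29.5 ± 1.73 in pair 6 (SD, n = 4 each), and the ranges touched at 28. When every list was reduced to its 12041 widest peaks, the difference between pairs went from 5.5 members to -0.25. The narrowest peak kept measured 1397 to 1686 bp in pair 6 and 307 to 1312 bp in pair 4. Peaks of a like width could thus be dropped in pair 6 and kept in pair 4, so this cut cannot show the part of list length.

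Ligand genes carried most of the difference between libraries. The number with a peak, of 19, was 10 and 4 in clone 4_1, 7 and 7 in 4_C2, 13 and 11 in 6_1, and 10 and 12 in 6_C4. The lowest was replicate 2 of 4_1, which was low among ligands without being the shortest list. Frizzled genes numbered 10 of 10 in 7 libraries and 9 in replicate 2 of 4_C2, and antagonist genes 3 to 5 of 7.

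**Figure D2:**
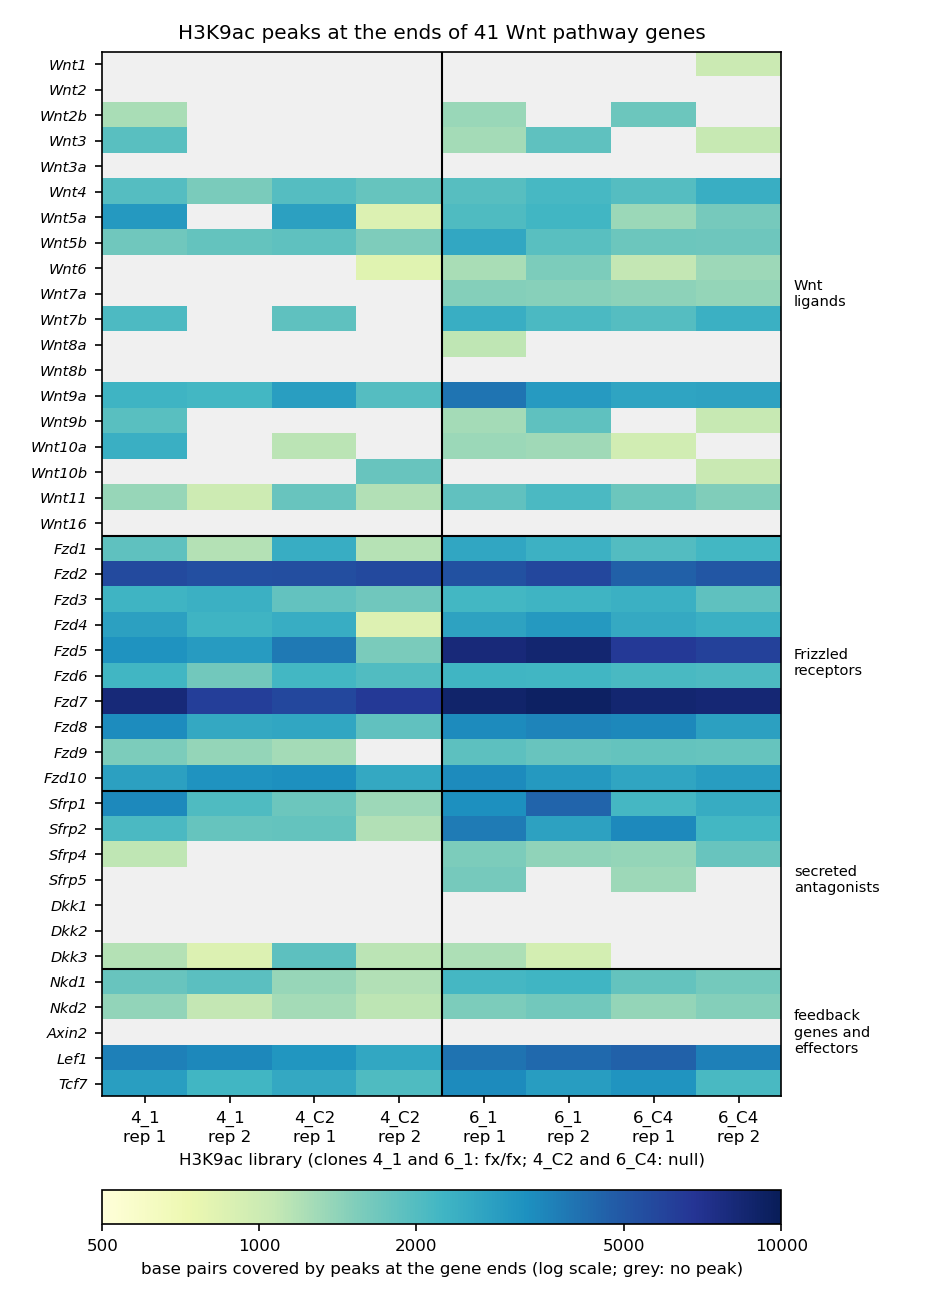
Covered length in bp at the ends of each of the 41 members (rows, grouped by role) in each of the 8 libraries (columns, by clone), with empty cells where no peak was called. The Frizzled rows are filled nearly throughout, and the ligand rows are mixed.

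Between genotypes, no member had a peak in all 4 libraries of a genotype while lacking it in the other 4, and 0.0457% of all genes had one in every fx/fx and no null library and 0% the reverse. A difference of at least 2 libraries was seen in 3 members with more in fx/fx (7.32%, against 2.48% of all genes) and 1 with more in null (2.44% against 0.567%). Those with more in fx/fx were Wnt3, Wnt9b and Dkk3, and the one with more in null was Wnt10b. Of the 15 members with a peak in some libraries, 8 had more fx/fx than null libraries (53.3% against 59.7% of all such genes) 4 the reverse (26.7% against 19.1%) and 3 as many of each (20% against 21.3%).

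Wnt3, the ligand required for the mouse primitive streak, and Wnt9b, a ligand of the kidney duct, lie next to each other on chromosome 11, and the difference came from 1 region that falls in the end windows of both (chr11:103773123-103775180). Its width was 1926 and 0 bp in clone 4_1, 0 and 0 in 4_C2, 1263 and 1865 in 6_1, and 0 and 1050 in 6_C4. A peak was present in 3 fx/fx libraries and 1 null library, and both genotypes held libraries without it. A region inside Wnt3 (chr11:103809042-103811069), outside its end windows, was present in all 8 libraries at 1530 to 1907 bp. Wnt9b has its listed start away from its annotated end, in a region (chr11:103748787-103750362) that had 1544 and 1270 bp in 4_1, 1300 and 0 in 4_C2, 1170 and 1446 in 6_1, and 1386 and 1532 in 6_C4. At that start the genotypes differed by 1 library, replicate 2 of 4_C2.

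Dkk3, a member of the Dickkopf family that, unlike Dkk1, is not known as a strong inhibitor of the Wnt coreceptors, had a region at its right end (chr7:112157356-112159253). Its covered length was 1165 and 865 bp in clone 4_1, 1898 and 1128 bp in 4_C2, 1213 and 934 bp in 6_1, and 0 and 0 bp in 6_C4. The null clone 6_C4 lacked the peak in both replicates, and the null clone 4_C2 had it in both. It was the 1 member of the 41 present in both fx/fx libraries of pair 6 and absent from both null ones, a pattern held by 0.704% of all genes, and no member had it in pair 4 (1.14% of all genes). The reverse pattern was held by no member in pair 4 (0.233%) or pair 6 (0.178%).

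The Dkk3 peaks of 4_1 replicate 2 and 6_1 replicate 2 began 853 and 809 bp from the gene's end, inside the window of 1000 bp, and with windows of 500 bp the difference between genotypes went from 2 libraries fewer in null to 1 more.

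Wnt10b, a canonical ligand known from fat and mammary tissue, had 0 and 0 bp in clone 4_1, 0 and 1763 in 4_C2, 0 and 0 in 6_1, and 0 and 1036 in 6_C4. A single replicate of each null clone had the peak, and no fx/fx library did. That peak lay over the listed start (chr15:98776847-98778609). Just outside the window at the other end of the gene, a separate inner region (chr15:98771986-98773223) had peaks in 4 libraries, 2 of each genotype. Its peaks lay 1274 bp from that end in 6_1 replicate 1, 1394 bp in 4_1 replicate 1 and 1428 bp in 6_C4 replicate 1. Just inside a window of 1000 bp, besides the Dkk3 values above, was a Wnt9b peak of 6_C4 replicate 2 at 874 bp.

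Between isolate pairs, 7 members had a peak in at least 2 more libraries of pair 6 than of pair 4 (17.1%, against 6.57% of all genes), and 1, Dkk3, the reverse (2.44% against 0.338%). The 7 were the ligand genes Wnt3, Wnt6, Wnt7a, Wnt7b and Wnt9b and the antagonist genes Sfrp4 and Sfrp5. Wnt3 and Wnt9b are counted through the same region, described above. At its own listed start Wnt9b had a peak in 3 libraries of pair 4 and 4 of pair 6. Of the 15 members with a peak in some libraries, 13 had more of pair 6 (86.7%), close to the 83% of all such genes, 1 more of pair 4 (6.67% against 9.08%) and 1, Wnt10b, as many of each (6.67% against 7.9%). These shares stand beside the longer lists of pair 6.

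Wnt7a, a ligand known from the nervous system, the limb and the female reproductive tract, was the 1 member with a peak in every pair 6 and no pair 4 library, a pattern held by 0.626% of all genes, and no member showed the reverse (0.0228%). Its region (chr6:91410381-91411986) had 0 bp in all 4 libraries of pair 4, and 1491 and 1475 bp in clone 6_1 and 1429 and 1371 bp in 6_C4. The pairs did not overlap, and both genotypes of pair 6 had the peak. The peaks lay across the start site shown above. In lists of equal length, where the narrowest peak kept in pair 6 measured 1397 to 1686 bp, the Wnt7a peak was kept in no library.

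Wnt6, a ligand of epithelia next to which Wnt10a lies, had at its right end 0 and 0 bp in clone 4_1, 0 and 821 in 4_C2, 1236 and 1574 in 6_1, and 1075 and 1314 in 6_C4. A single library of pair 4 had that peak, and all 4 of pair 6 did, but in lists of equal length the difference went from 3 libraries more in pair 6 to 1 fewer (-1). Those lists, cut by width, dropped the pair 6 peaks as too narrow and kept the 821 bp peak of 4_C2, whose list was not shortened. Between genotypes the right-end peak was present in 1 more null library, and in 1 fewer with windows of 500 bp or an overlap of at least 500 bp. The listed start lies in a separate region, and there 1 fewer null library than fx/fx had a peak. At that start (chr1:74770748-74772823) the region was present in 7 libraries, at 1307 to 1918 bp, and missing in replicate 2 of 4_C2. Wnt7b, the close relative of Wnt7a, had 2074 and 0 bp in 4_1, 1876 and 0 in 4_C2, 2421 and 2100 in 6_1, and 1980 and 2347 in 6_C4. Here the missing libraries were replicate 2 of each clone of pair 4.

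Sfrp4, a decoy that binds Wnt proteins, had 1100 and 0 bp in clone 4_1, 0 and 0 in 4_C2, 1563 and 1411 in 6_1, and 1373 and 1754 in 6_C4. Sfrp5, its relative and a gene known from anterior endoderm, had a peak only in replicate 1 of 6_1 (1621 bp) and replicate 1 of 6_C4 (1317 bp). All 4 pair 6 libraries thus had the Sfrp4 peak, and 1 replicate of each pair 6 clone had that of Sfrp5. A neighbouring region in the 5000 bp around Sfrp4, outside its end windows, was present in all 8 libraries at 1264 to 1989 bp. That region falls in an end window of another gene, Epdr1.

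The remaining ligands with a peak in some libraries differed by no more than 1 library between genotypes and between pairs. Wnt5a, a ligand of the non-canonical branch, had a peak in 7 libraries at 866 to 2963 bp and none in replicate 2 of 4_1. Wnt10a, known from teeth and hair, had one in 5 libraries at 953 to 2398 bp, and Wnt2b, known from the lung, in 3 at 1233 to 1715 bp. Wnt1 had one in replicate 2 of 6_C4 alone (1012 bp) and Wnt8a, a ligand of the early streak, in replicate 1 of 6_1 alone (1103 bp).

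Peaks outside the end windows were then counted, since the listed start of a gene can lie inside its span. Axin2, the feedback inhibitor used widely as a reporter of canonical signalling, had no peak at its ends, but its listed start at 108920349 lay in a region (chr11:108919570-108923687) present in every library. That region had 4106 and 3681 bp in 4_1, 3779 and 3886 in 4_C2, 3687 and 3310 in 6_1, and 3463 and 3429 in 6_C4. The genotypes overlapped, with a centred log2 change of 0.12 ± 0.09 in null (SE, limma adjusted p = 0.80). Pair 6 was narrower than pair 4 on the centred scale (-0.42 ± 0.09, SE, limma adjusted p = 0.0315), but without centring the change was -0.15 (limma adjusted p = 0.171), and leaving out any library other than replicate 1 of 4_C2 ended the call (limma adjusted p of 0.0304 to 0.0885).

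The region inside Wnt3 was at -0.34 ± 0.09 between pairs on the centred scale (SE, limma adjusted p = 0.0482) and at -0.07 without centring (limma adjusted p = 0.542). Leaving out any library other than replicate 1 of 4_1 ended that call (limma adjusted p of 0.0407 to 0.139).

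Wnt3a had a region inside the gene (chr11:59263341-59265144) in 7 libraries at 1121 to 1600 bp, missing in replicate 1 of 4_1, and no peak at its start. Wnt8b, a ligand of the forebrain, had an inner peak in 4 libraries at 907 to 1228 bp, and Wnt2, a ligand of the lung and placenta, had a peak at its listed start in replicate 2 of 4_1 alone (909 bp). For Wnt16, a ligand known from bone, the nearest peak lay 52614 to 56785 bp away in every library. At listed starts, 14 of 30 members (46.7%) had a peak in all 8 libraries, against 47.2% of 17492 genes with a start in the table, and 7 (23.3%) in none, against 37.3%. Wnt7a was again the 1 member with a peak in every pair 6 and no pair 4 library (0.509% of genes).

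Within 5000 bp of a member or inside it lay 68 regions, of which 23 were in all 8 libraries and 17 in 1 library. No region was present in all 4 libraries of a genotype while absent from the other 4. Of the 68, 3 (4.41%) were present in every pair 6 and no pair 4 library, against 2.85% of all 26034 regions, and none showed the reverse (0.0384%). They were the Wnt7a start, an inner start of Wnt11 and a region upstream of Lef1. The Wnt11 region (chr7:98838207-98839827) had 1208 and 1621 bp in 6_1 and 1313 and 1235 bp in 6_C4. The Lef1 region (chr3:131105400-131108323), 1974 bp from the start, had 2512 and 2845 bp in 6_1 and 2600 and 2066 bp in 6_C4. In lists of equal length the Lef1 region was kept in 4 of 4 pair 6 libraries and in none of pair 4, and the other 2 were kept in none. These lists were cut by peak width, so that outcome follows from the widths and does not test the split. The narrowest peak kept in pair 6 measured 1397 to 1686 bp. The Lef1 peaks were wider than that, and each Wnt7a and Wnt11 peak was narrower than the narrowest kept in its library.

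Widths were tested where all 8 libraries had the region, with limma on log2 width centred on each library's median and with Benjamini-Hochberg adjustment over 10171 regions at 0.05. Of the members, 19 had such a region at an end, the same 19 as above. Null against fx/fx over both pairs, no region of the genome was called (0% wider and 0% narrower), and none of the members. At an unadjusted p under 0.05, 3.72% of all regions were wider and 3.22% narrower in null, and of the 19 members 0 were wider and 2, Sfrp1 and Nkd1, narrower. The median log2 change of the 19 was -0.03, with 10 below 0, on a scale where the median of each library is 0. That centring removes any shift shared by most regions. Without it no region was called with genotype either. At an unadjusted limma p under 0.05, 1296 of the 10171 regions were then narrower and 19 wider in null. Of all regions, 84.1% then had a change below 0.

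Sfrp1, the founding secreted Frizzled-related decoy, had the largest change with genotype among the members. Its region (chr8:23410099-23414558) had 3416 and 2043 bp in clone 4_1, 1710 and 1315 in 4_C2, 3271 and 4460 in 6_1, and 2179 and 2465 in 6_C4. Within each pair both fx/fx libraries were wider than both null libraries, and across pairs the genotypes overlapped (3298 ± 990 bp in fx/fx, 1917 ± 508 bp in null, SD, n = 4 each). The centred log2 change was -0.63 ± 0.15 (SE), which did not pass (limma adjusted p = 0.714). It was -0.67 ± 0.22 in pair 4 and -0.59 ± 0.22 in pair 6 (SE, limma adjusted p = 0.405 and 0.999), each a comparison of single clones. Of all 10171 regions, limma called 1 wider and 7 narrower in null within pair 4, and 0 within pair 6. No member was called within either pair.

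Nkd1, which encodes a Dishevelled-binding feedback inhibitor, had a region at its left end (chr8:88520507-88522787) with 1759 and 1911 bp in clone 4_1, 1360 and 1187 in 4_C2, 2178 and 2246 in 6_1, and 1804 and 1634 in 6_C4. Both fx/fx libraries were again the wider in each pair, and replicate 1 of 6_C4 exceeded replicate 1 of 4_1. The centred log2 change was -0.31 ± 0.09 (SE, limma adjusted p = 0.714), with -0.38 ± 0.12 in pair 4 and -0.24 ± 0.12 in pair 6 (SE). The listed start of Nkd1 lies inside the gene, away from this peak.

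Wnt4, a ligand of the kidney and gonad, had 1984 and 1577 bp in 4_1, 1980 and 1771 in 4_C2, 1945 and 2154 in 6_1, and 1969 and 2418 in 6_C4, and the genotypes overlapped. Its centred log2 change was 0.22 ± 0.10 in null (SE, limma adjusted p = 0.72). The region of Fzd4, the receptor of the retinal vessel ligand norrin as well as of Wnt proteins, also falls in an end window of Tmem135. It had 2761 and 2271 bp in 4_1, 2453 and 854 in 4_C2, 2697 and 2973 in 6_1, and 2536 and 2360 in 6_C4. The low value was that of the shortest list, and the centred change was -0.37 ± 0.24 (SE, limma adjusted p = 0.759). Without that library it was -0.06 (limma adjusted p = 0.93).

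Whether the genotype effect differed between the pairs was tested as an interaction, in which no region was called (0% each way) and 2.76% and 3.89% of regions were higher and lower in pair 6 at an unadjusted p under 0.05. Among members, Wnt11 had an interaction of -0.62 ± 0.23 (SE, limma adjusted p = 0.697). Its region had 1362 and 992 bp in 4_1, 1769 and 1187 in 4_C2, 1846 and 2093 in 6_1, and 1715 and 1526 in 6_C4. In pair 4 the null clone had the higher mean and in pair 6 the fx/fx clone, with centred changes of 0.46 ± 0.16 and -0.16 ± 0.16 (SE).

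Pair 6 against pair 4, limma called 4.32% of regions wider and 2.52% narrower, and of the 19 members 1 wider and 0 narrower. The member was Fzd5, a receptor gene needed for yolk sac vessels and eye development. Its region (chr1:64730930-64739474) had 3175 and 2899 bp in clone 4_1, 4849 and 1587 in 4_C2, 8083 and 8506 in 6_1, and 7694 and 7368 in 6_C4. All 4 libraries of pair 6 were wider than all 4 of pair 4, and the genotypes overlapped. The centred log2 difference was 1.18 ± 0.23 (SE, limma adjusted p = 0.0186), and the genotype change was 0.00 ± 0.23 (SE, limma adjusted p = 1.00). Without replicate 2 of 4_1, replicate 1 of 6_1 or replicate 1 of 6_C4 the limma adjusted p was 0.0504, 0.0502 and 0.0537, and in lists of equal length the difference was 1.24 (limma adjusted p = 0.0148).

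The Fzd5 gene spans 7193 bp, and the peaks of the pairs differed in how far they ran into it. In pair 4 the peak at the start ended 1414 to 2072 bp downstream of the start, with further separate peaks in replicate 2 of 4_1 (5694 to 6419 bp) and replicate 1 of 4_C2 (2387 to 3400 and 5030 to 6466 bp). In pair 6 the peaks covered most of the gene: a single peak ran from -1685 to 6820 bp in replicate 2 of 6_1, and in the other 3 libraries adjoining peaks reached 6507 to 6620 bp. The upstream edge lay at -1724 to -1510 bp in pair 6 and at -1447 to -172 bp in pair 4.

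**Figure D3:**
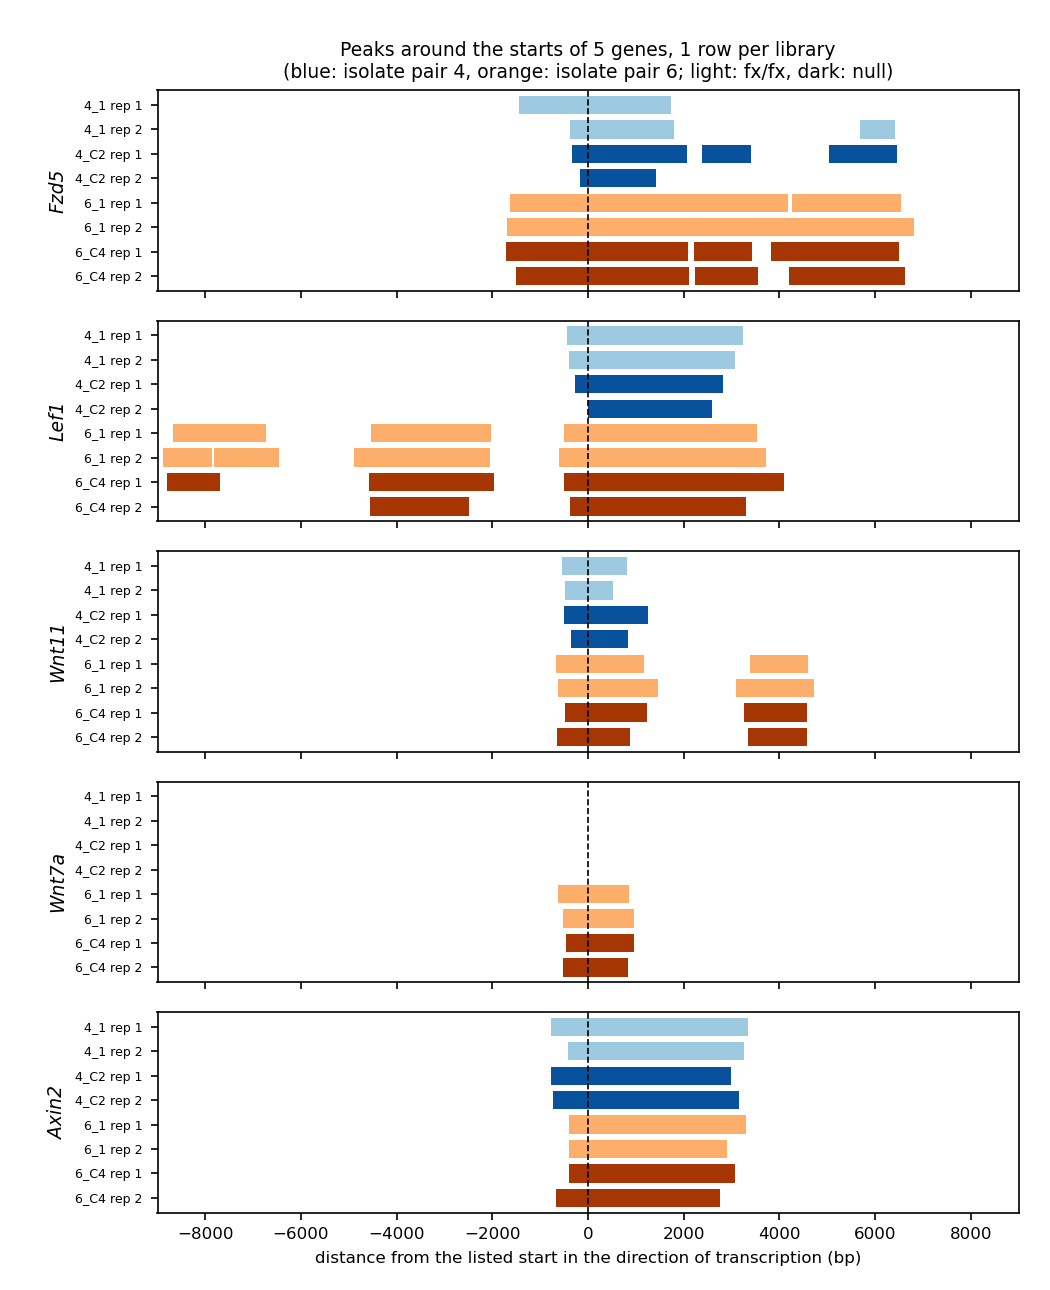
Called peaks (bars) around the listed starts of Fzd5, Lef1, Wnt11, Wnt7a and Axin2, as distance in bp from the start in the direction of transcription, with 1 row per library. At Fzd5 the bars of pair 6 reach 6507 to 6820 bp, upstream of Lef1 and at Wnt7a bars are drawn for pair 6 alone, and at Axin2 every library has a bar over the start.

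**Figure D4:**
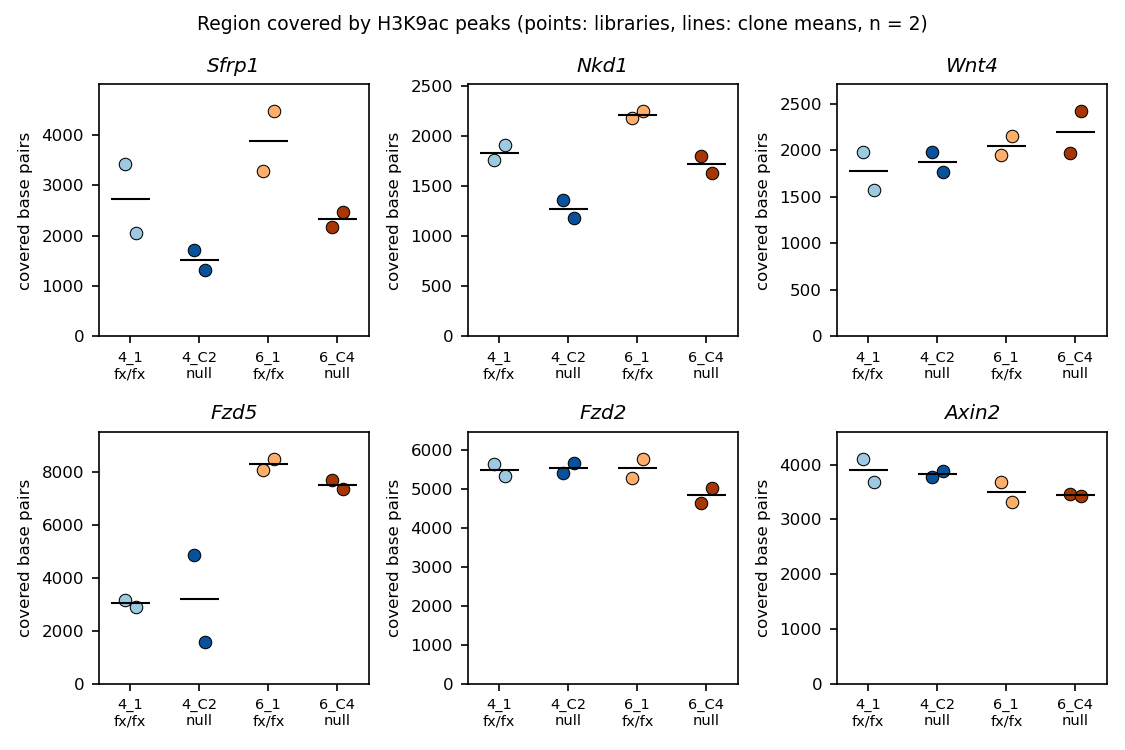
Width in bp of the regions of Sfrp1, Nkd1, Wnt4, Fzd5, Fzd2 and the Axin2 start in each library (points), by clone on the horizontal axis, with lines at the clone means (n = 2). At Sfrp1 and Nkd1 both fx/fx libraries lie above both null libraries of their pair, and at Fzd5 pair 6 (7368 to 8506 bp) lies above pair 4 (1587 to 4849 bp).

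The receptor genes Fzd5, Fzd7 and Fzd2 had the widest regions of the members. Ranked by mean width among the 10171 regions, whose median was 2302 bp, Fzd7 stood at rank 44 (mean 7720 bp, 99.6th percentile), Fzd5 at 210 (5520 bp, 97.9th) and Fzd2 at 236 (5341 bp, 97.7th). Lef1 (3679 bp, 87.6th) and the Axin2 start (3668 bp, 87.4th) followed. The narrowest were Nkd2, a relative of Nkd1 (1371 bp, 5.08th percentile), and Wnt11 (1561 bp, 12.7th). Of the ligands tested, Wnt9a, known from joints and blood stem cells, had the widest region (3020 bp, 75.6th), and Wnt5b, a non-canonical ligand, had 1552 to 1937 bp. The Wnt5b region also falls in an end window of Gm52875. The other receptor genes lay between: Fzd1 at 1148 to 2609 bp, Fzd3 and Fzd6, known from axon guidance and hair patterning, at 1683 to 2365 and 1656 to 2250 bp, Fzd8 at 1838 to 3530 bp and Fzd10 at 2554 to 3403 bp. Sfrp2, a decoy like Sfrp1, had 1182 to 2734 bp, Lef1 2600 to 4604 bp and Tcf7, another beta-catenin partner, 2050 to 3402 bp.

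Fzd2 had 5628 and 5316 bp in 4_1, 5413 and 5664 in 4_C2, 5280 and 5767 in 6_1, and 4633 and 5023 in 6_C4, and its centred pair difference was -0.36 ± 0.10 (SE, limma adjusted p = 0.0629). Without centring that difference was -0.09. Over all regions, widths before centring were higher by a median of 0.25 log2 units in pair 6 and lower by 0.12 in null. The uncentred fit between pairs called 2724 of the 10171 regions wider and 22 narrower, so calls in it were not particular to the members. Without centring, 6 of the 19 members passed between pairs: Fzd5, Fzd7 (0.41, limma adjusted p = 0.0264), Sfrp1 (0.58, limma adjusted p = 0.0414), Nkd1 (0.35, limma adjusted p = 0.025), Nkd2 (0.34, limma adjusted p = 0.0456) and Lef1 (0.38, limma adjusted p = 0.0402). Fzd7, a receptor expressed in pluripotent cells, ranged from 5716 to 8188 bp in pair 4 and from 8362 to 9311 bp in pair 6.

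**Figure D5:**
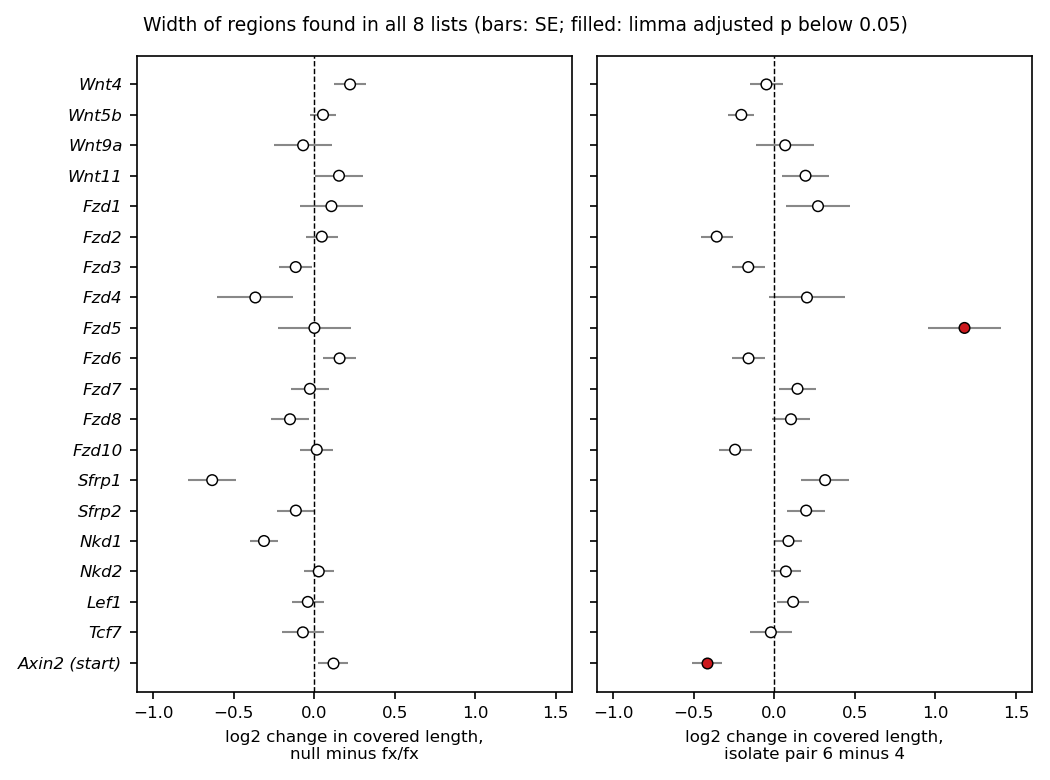
Centred log2 width change of each tested member (points, with standard errors as bars) for null against fx/fx and for pair 6 against pair 4. With genotype no member passed the threshold, and between pairs Fzd5 (1.18) stands apart from the rest.

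The other Wnt pathway genes, 64 in 5 lists, were read in the same way. Of 10 nuclear effector genes all had a peak in all 8 libraries, of 13 other receptor and coreceptor genes 11, and of 20 genes of the cytoplasm and the destruction complex 15. Of 11 genes of secretion, R-spondins and other antagonists 2 did, Wls, the Wnt carrier, and Notum, which removes the lipid, and Dkk4 and Sostdc1 had a peak in none. Of 10 Wnt-responsive transcription factor and cell cycle genes 1 did, Ccnd1.

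With genotype, limma called none of these genes. The highest centred changes were those of Dvl3 (0.22 ± 0.09, SE, limma adjusted p = 0.716) and Dvl1 (0.20 ± 0.11, SE, limma adjusted p = 0.724). The lowest centred changes were those of Gsk3a, a kinase gene of the destruction complex (-0.55 ± 0.22, SE, limma adjusted p = 0.716), and Ror2, a Wnt5a receptor gene (-0.33 ± 0.17, SE, limma adjusted p = 0.724). Neither was alike in the pairs: Gsk3a was at 0.06 ± 0.15 in pair 4 and -1.16 ± 0.15 in pair 6 (SE, limma adjusted p = 0.918 and 0.0939), and Ror2 at -0.66 ± 0.19 in pair 4 and -0.01 ± 0.19 in pair 6 (SE, limma adjusted p = 0.345 and 0.999). The interaction did not pass for either (limma adjusted p = 0.307 and 0.737). Between pairs limma called 2 wider and 0 narrower, beside 4.32% wider and 2.52% narrower of all regions. The 2 were 1 of 10 tested nuclear effector genes and 1 of 10 tested other receptor and coreceptor genes. Ctbp2, a corepressor gene, had a region of 6592 and 7954 bp in 4_1, 6942 and 4665 in 4_C2, 15659 and 14208 in 6_1, and 15562 and 13460 in 6_C4 (log2 0.93 ± 0.12, SE, limma adjusted p = 0.00386). Lgr4, an R-spondin receptor gene, had 3131 and 2504 bp in 4_1, 2034 and 2187 in 4_C2, 4968 and 4573 in 6_1, and 4379 and 4542 in 6_C4 (0.66 ± 0.12, SE, limma adjusted p = 0.0129). Both were wider in all 4 libraries of pair 6 than in any of pair 4, as was Fzd5.

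A peak in both fx/fx libraries and in neither of the null ones was held in pair 4 by 4 of the 64 genes (6.25%, against 1.14% of all genes), Porcn, the acyltransferase of Wnt proteins, Amer1, Sp8 and Tbx6, and in pair 6 by Rspo4 (1.56%, against 0.704%). Among the 55 cell type markers, 5 had it in pair 4 (9.09%), Eomes, Gsc, Hand2, Sox3 and again Tbx6, and 0 in pair 6. Among the 8 streak and mesoderm markers, the number with a peak was 5 to 8 in fx/fx and 2 to 7 in null libraries, and 2 to 8 in pair 4 and 6 to 8 in pair 6. The 7 endoderm markers had 0 to 3 in pair 4 and 3 in pair 6, with Hnf4a, Afp and Ttr at none. The 7 fibroblast markers had 0 to 2 in fx/fx and 0 to 1 in null, with Col3a1, Postn, Dcn and Lum at none. The part of these cell types in the results was not tested.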

How the data were processed

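The authors deposited 1 H3K9ac peak list for each of 8 libraries, not pooled, holding only the chromosome, start and end of each peak. Per the submitters' processing notes, tools were Bowtie 1.1.2 with MACS 1.4.2, and the build was mm10. The sources used here give no threshold, control or depth. Coordinates are on mm10, counted from 1. Genes came from the RefSeq gene table of GRCm38.p6, which holds no exons, and starts and strands from its promoter table, where 30 of 41 members matched. The members, lists and tests were chosen with earlier results of these data known.

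Presence was counted in windows of 1000 bp at both gene ends. Widths of 10171 regions found in all 8 lists were tested in limma 3.58.1 (R 4.3.3) with isolate pair as covariate. The scripts were tested on simulated data. A separate interaction fit compared the pairs. Other steps used Python 3.11.15, pandas 2.3.3, numpy 2.4.6, SciPy 1.17.1 and matplotlib 3.10.9. Members were named in full, with each library's value for up to 16 that were tested or differed by at least 2 libraries, and other pathway genes where they passed or changed most. Values for the Axin2 start, the Wnt3 and Wnt11 inner regions and the Lef1 upstream region were added after they were seen. Alternatives changed windows, overlap, list length, centring, the model or the libraries.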

Additional observations from a re-analysis of the deposited data

Results flagged for a closer look

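In 3 groups a Frizzled region had 1 library far below the others of its genotype by Dixon's criterion. Fzd4 measured 854 bp in replicate 2 of 4_C2, against 2360 to 2536 bp in the other null libraries. Fzd6 measured 1656 bp in replicate 2 of 4_1, against 2219 to 2250 bp in the other fx/fx libraries, and Fzd8 measured 2544 bp in that same library, against 3366 to 3530 bp. Chance marks about 1 in 20 groups, and 40 groups were looked at.

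At Dkk3 the genotype effect in pair 6 minus that in pair 4 was -3.13 on the log2 scale (limma adjusted p = 0.00631), in the alternative with 200 bp added to widths and regions found in at least 4 lists. Both libraries of 6_C4 are at 0 bp there, so the size of this value and its spread follow from the 200 bp added, and Dkk3 was already singled out by its presence.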

How the results depend on the processing

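Adding 200 bp to widths and testing regions in at least 4 lists called 18 regions with genotype, 1476 between pairs and 330 for the interaction, in place of 0, 695 and 0, and 2 members between pairs and 1 (Dkk3) for the interaction, in place of 1 and 0. Regions absent from a whole group take their change from the 200 bp added. Without centring, 2746 of 10171 regions and 6 of 19 members were called between pairs. Leaving out 1 library gave 0 to 1 region with genotype, 293 to 507 between pairs and 0 to 1 for the interaction. It gave 0 to 1 member between pairs, with Fzd5 lost without replicate 2 of 4_1, replicate 1 of 6_1 or replicate 1 of 6_C4. Smaller residual degrees of freedom come with each such fit.

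Members with a peak in every pair 6 and no pair 4 library numbered 2 with peaks of at least 1000 bp, 0 in lists of equal length and 1 to 2 without 1 library (2 without 4_1 replicate 1, and 2 without 4_C2 replicate 2). In pair 4, the count with both fx/fx and neither null library was 1 in lists of equal length and 0 to 4 without 1 library (4 without replicate 2 of 4_1), and the reverse was 1 and 0 to 2 (2 without replicate 1 of 4_C2). In pair 6 the first pattern, Dkk3, fell to 0 with windows of 500 bp and with an overlap of at least 500 bp, and was 1 to 3 without 1 library (3 without replicate 2 of 6_C4), and the reverse was 0 to 2 (2 without replicate 1 of 6_C4). At gene starts alone it was 0, where Dkk3, which has no listed start, could not be counted. Over all 21887 genes these counts moved too. Every pair 6 and no pair 4 library was held by 137 genes, and by 145 to 313 without 1 library. Both fx/fx and neither null library was held by 250 in pair 4 (250 to 1050 without 1 library) and 154 in pair 6 (154 to 445). The reverse was held by 51 in pair 4 (51 to 330) and 39 in pair 6 (39 to 156). The pair difference in members with a peak was 2.75 at gene starts, -0.25 in lists of equal length and 4.5 to 6.83 without 1 library. The genotype difference of -1.5 was -3.67 to 0 without 1 library, reaching 0 without replicate 1 of 6_1.

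The difference in libraries with a peak reversed at Wnt6 between pairs in lists of equal length (-1) and at Dkk3 between genotypes with windows of 500 bp (1), an overlap of at least 500 bp (1) and lists of equal length (2). At Wnt6 between genotypes it went from 1 to -1 with windows of 500 bp, an overlap of at least 500 bp and gene starts alone. The last of these settings counts a separate region at the listed start and not the right-end peak. In lists of equal length both reversals follow from the cut by width. The Wnt6 peaks of pair 6 (1075 to 1574 bp) and the Dkk3 peaks of fx/fx libraries (865 to 1213 bp) were too narrow to be kept. The peaks of 4_C2 (821 bp at Wnt6, 1898 and 1128 bp at Dkk3) were kept. The cause of the reversals with windows of 500 bp and with an overlap of at least 500 bp was not tested. For presence of the 9 members that differed, 77 of 102 values under other settings kept their direction and size, as did 68 of 144 values with 1 library left out.

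With a replicate block the genotype and interaction tests called 0 regions each, as without it. The pair contrast could not be fitted with the block. Deviations of libraries that shared a replicate number correlated at 0.109 in pair 4 and 0.0624 in pair 6, so the numbers were not taken as pairing. Depth is unknown, and peaks near the calling threshold limit every presence value.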
